A study of Mus musculus with 14 samples.

Results

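The genes described here act on microRNAs (miRNAs) after Drosha has cut the primary transcript. They are Xpo5, Dicer1, its partners Tarbp2 and Prkra, the Argonautes Ago1, Ago2 and Ago3, and the GW182 genes Tnrc6a, Tnrc6b and Tnrc6c. They were chosen by symbol, and all 10 were found among the 22376 genes of the RNA-seq table. In the Degradome-seq tables the deposited annotation named one of them at 0 of 3919 sites in the Drosha comparison and at 1 of 4666 sites in the Dicer comparison, which is a Tnrc6a site. Most sites carry no gene in that annotation (3144 and 3821 of them), so every site was also placed by its coordinates on the mouse GRCm38 (mm10) annotation GENCODE vM21. By that placement 7 of the 5990 distinct sites lie inside the bounds of these genes, 6 in the Drosha table and 4 in the Dicer table, with 3 in both.

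In the canonical pathway Xpo5 carries the precursor hairpin out of the nucleus. Dicer1 then cuts it to a duplex with the double-stranded RNA binding proteins encoded by Tarbp2 and Prkra, an Argonaute keeps one strand, and a GW182 protein links that Argonaute to the enzymes that shorten the poly(A) tail and block translation. Ago2 is the Argonaute that can itself cut a target RNA and leaves a 5′ monophosphate on the downstream piece, as the RNase III enzymes Drosha and Dicer also do.

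The study asked which polyadenylated RNAs Drosha cuts in mouse embryonic stem cells (ESCs). Degradome-seq ligates an RNA linker to 5′ monophosphate ends of polyA RNA and sequences from there, so that a pile-up of read starts marks one RNA end. In the first line, Drosha fl/fl ESCs with CreERT2 at the Rosa26 locus were either left untreated (control, n = 2) or given 100 nM 4-hydroxytamoxifen for 72 h and 48 h without it (Drosha-deficient, n = 2), and 3 control and 3 Drosha-deficient RNA-seq libraries came from the same line and treatment. In the second line, Dicer fl/fl ESCs received a retrovirus with GFP (control, n = 2) or with GFP and Cre (Dicer-deficient, n = 2), and by the protocol GFP+ cells were taken by sorting on day 3 and grown for 2 more days. All ESCs grew with LIF on mitomycin C-treated mouse embryonic fibroblasts, and all carry floxed alleles. The drug was given to the deficient arm alone, so tamoxifen with Cre activity and loss of Drosha cannot be told apart here.

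The RPM values (read starts at a site, scaled to the reads of the library) rest on 28682300 to 34547609 reads per library, recovered from the spacing of the values. A count of 3 reads equals 0.0868 to 0.105 RPM, and every value given for these genes lies above that. The tabled sites took 12.4 and 12.6% of reads in the Drosha controls against 8.69 and 8.93% in the Drosha-deficient libraries, and 29.2 and 30.1% in the Dicer controls against 23.1 and 23.4% in the Dicer-deficient ones. At the sites annotated as miRNAs, RPM was lower in the Drosha-deficient libraries at 91 of 93 (median log2 fold change -1.97) and in the Dicer-deficient libraries at 46 of 79 (median -0.10). The RNA-seq table used here holds 1 mean over all 6 libraries per gene, so neither Drosha nor Dicer1 could be checked library by library. In that mean, 10 ESC markers had a median of 8.78 log2 CPM (counts scaled to the library total), or 6.97 less the log2 of the exon length in kb. The 10 fibroblast markers had a median of 3.14, or 0.93 per kb, and ranged from -2.30 to 6.60 log2 CPM with Col1a1 the highest. The part of feeder RNA in the levels was not tested, and in bulk samples fewer cells of a type and less RNA per cell cannot be told apart.

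RNA for every one of the 10 genes was present above the median gene. Their mean levels ran from 4.51 log2 CPM for Tarbp2 to 9.25 for Ago2, where the median over all genes was 2.34. Those values carry gene length, since long genes give more reads. For the order of the 10 genes, the log2 of the joined exon length in kb was therefore subtracted. On that per-kb scale the 10 genes had a median of 3.47, against 1.05 over all genes. No value per library was used, so the order that follows has no spread and no test, and neighbours in it cannot be separated.

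Ago2 led at 5.44 log2 CPM per kb, above 93.8% of all genes. Ago1, an Argonaute without known strong cutting activity, followed at 4.48, and the exporter gene Xpo5 stood next at 4.41. Tnrc6a, the first GW182 gene, was at 4.25. The middle of the order held Prkra (encoding PACT) at 3.73 and Dicer1 at 3.20. At the lower end Tnrc6c stood at 2.41, Tarbp2 (encoding TRBP) at 2.33, Tnrc6b at 2.22 and Ago3 at 1.44. With the longest annotated transcript as the length, 5 of the 10 genes changed place: Tnrc6a moved to the second place at 4.88, ahead of Xpo5 at 4.84 and Ago1 at 4.64, while Ago2 and Ago3 kept the ends at 5.46 and 1.53.

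**Figure D1:**
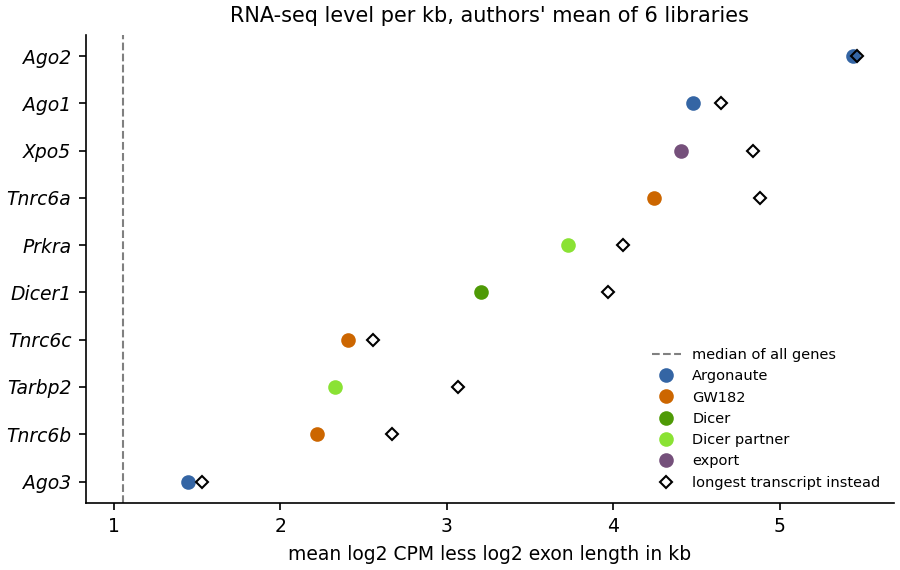
RNA-seq level of each gene, as the authors' mean log2 CPM over 6 libraries less log2 of the exon length in kb (filled circles, coloured by role) or of the longest transcript (open diamonds). Ago2 stands highest at 5.44 and Ago3 lowest at 1.44, and all 10 lie above the dashed median of all genes at 1.05; a pooled mean has no error bar.

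Within each family a single gene held most of the RNA per kb. Ago2 made up 63.0% of the summed Argonaute level, Ago1 32.3%, Ago3 3.95% and Ago4, which is not among the 10 genes, 0.769%. The Ago2 level per kb was 1.95 times that of Ago1 and 15.9 times that of Ago3. Tnrc6a accounted for 65.6% of the GW182 RNA, Tnrc6c for 18.3% and Tnrc6b for 16.1%. Of the Dicer partners, Prkra held 72.5% and Tarbp2 27.5%, and Xpo5 stood 2.30 times above Dicer1. These shares moved with the length used: with the longest transcript Tnrc6a held 70.6% and Prkra 66.6%.

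The pile-up sites fell unevenly over the genes. Ago2 held 2 sites, and Dicer1, Ago3, Tnrc6a, Tnrc6b and Tnrc6c held 1 each, while 4 genes (Xpo5, Tarbp2, Prkra and Ago1) held none. Thus 6 of the 10 genes (60.0%) contained a site, beside 29.1% of the 7631 genes whose level was at least that of Tarbp2. The genes also differ in span, with a median of 67812 nt for the 10 and 25878 nt for the 7631, and the part of gene length in this share was not tested. By the study's methods, a gene without a site had no pile-up that passed the classifier in both control libraries. That does not show that its RNA was uncut.

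Only 1 of the 7 sites lies in a coding exon on the gene's own strand (Tnrc6a). Another 3 are in introns on the sense strand, in Ago2, Tnrc6b and Tnrc6c, and 3 run antisense to Ago2, Ago3 and Dicer1. A feature the choice of genes did not use was the distance to an annotated exon-intron boundary on either strand. It was 0 nt at the Ago2 sense site, 2 at Dicer1, 6 at Tnrc6a, 14 at the Ago2 antisense site and 32 at Tnrc6c, and it was 390 nt at Ago3 and 3673 at Tnrc6b. So 5 of 7 sites lay within 32 nt of a boundary, beside 22.2% of the 5990 distinct sites. All 7 lie inside genes by their selection, while sites between genes made up 18.3% of the Drosha table and 27.7% of the Dicer table. The part of that selection in the share was not tested. The limit of 32 nt was taken from the 7 sites after their distances were seen, so the share is a description.

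**Figure D2:**
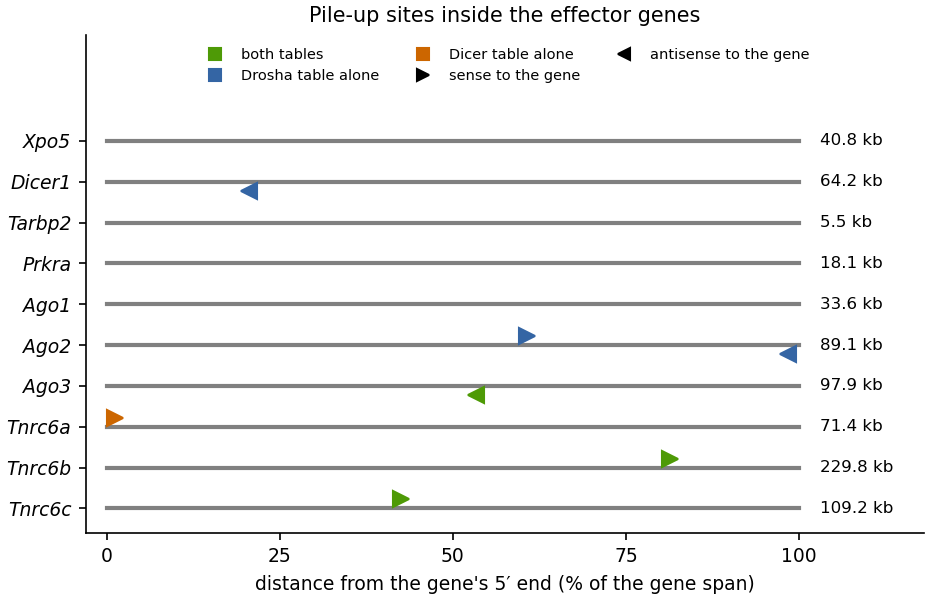
Position of each of the 7 pile-up sites along its gene, as a percent of the gene span from the 5′ end, with the span in kb at the right. Arrowheads above the line are sense and below it antisense; colour gives the table. The Tnrc6a site lies 825 nt from the 5′ end of its gene, and Xpo5, Tarbp2, Prkra and Ago1 hold no site.

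The 5 sites next to a boundary are shown so that the letters of the junctions around the RNA ends can be read. Each run is read 5′ to 3′ on the strand of the reads from RefSeq's GRCm38 assembly. The 15 genomic bases before the end are in lower case and the first 15 genomic bases from the end on in capitals. Read sequences were not examined, so it is not shown whether the reads are spliced. The linker is given for comparison, with its last 7 bases in capitals.
Tnrc6a sense: cgtagagagaaatctTAGCAGGTAAGATGG
Ago2 sense: cttaccatccatgagGTGAGGGCATCAGTG
Dicer1 antisense: ggtacatatttacctCGAAATGCTGACTCT
Ago2 antisense: atcgatctccgatctTATTTTCTTACCAGA
Tnrc6c sense: ctttaaagtagacatCATACTAACACTGCT
RNA linker: cacgacgcucuuCCGAUCU

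The Tnrc6a end (Tnrc6a, ENSMUSG00000052707, chr7:123124695-123124724, plus strand) is base 43 of the 48 bases of exon 2, and the capitals run through the last 6 exonic bases into the intron, whose first letters are GTAAG. That exon is coding in Tnrc6a-201, Tnrc6a-203 and Tnrc6a-210, and the deposited annotation names the non-coding Tnrc6a-209. A non-coding gene, Gm45846, covers the same bases on the same strand, so the reads cannot be assigned to one of them. The 4 genomic bases just before it equal the last 4 of the linker, and a match of 3 or more was found at 17.4% of sites in the Dicer table.

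The Ago2 sense end (Ago2, ENSMUSG00000036698, chr15:73130846-73130875, minus strand) is the first base of intron 4 of Ago2-201, a 2400 nt intron at chr15:73128461-73130860. Its capitals begin with the GT of the splice donor, and none of the linker's end bases match before it. The first base of an annotated intron is the site's position at 5.95% of the Drosha table and 6.50% of the Dicer table. Because Drosha cuts stem-loops, the 100 nt around each end (85 nt before it) were folded: this Ago2 window had a minimum free energy of -35.5 kcal/mol, and 7.10% of windows in the Drosha table were more stable. The other 6 windows ranged from -24.1 kcal/mol at Tnrc6b to -10.7 at Dicer1, around a median of -22.0 for that table. A low energy describes the sequence and does not show that a hairpin forms or is cut.

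The Dicer1 antisense end (Dicer1, ENSMUSG00000041415, chr12:104738770-104738799, plus strand) faces base 3 from the splice-side end of exon 1 of Dicer1-203, an alternative first exon, and intron 1 of Dicer1-201. The lower-case acct before it is the reverse complement of the last exonic bases joined to the donor GT. On the strand of its reads the annotation has no gene. The antisense end in Ago2 (chr15:73097307-73097336, plus strand) lies opposite the non-coding part of exon 19 of Ago2-201. On its own strand it is inside an intron of Chrac1, 14 nt before the next Chrac1 exon, and the AG of that acceptor falls within the capitals. The 8 genomic bases just before this end equal the last 8 of the RNA linker, a match of 7 or more found at 2.20% of sites in the Drosha table, and its first 30 bases occur 2 times in the genome. The part of linker-like sequence in its reads was not tested.

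The Tnrc6c end (Tnrc6c, ENSMUSG00000025571, chr11:117700678-117700707, plus strand) is in intron 1, 32 nt before exon 2. Its capitals hold TACTAAC from base 3, the letters of the yeast branch point, looked for on the strand of the reads within 30 bases once the sequence had been seen. That motif occurs at 4 of 3917 Drosha-table sites (0.102%) and 5 of 4665 Dicer-table sites (0.107%), and a match of letters is not a mapped branch point. The remaining 2 sites are in repeats and their sequences are not shown. The Tnrc6b site (chr15, plus strand, base 80898211) is in intron 14 of Tnrc6b-201 with 23 of its first 30 bases repeat-masked. The Ago3 antisense site (chr4, plus strand, base 126377432) is opposite intron 5 of Ago3-201 with 30 of 30 bases masked and 6 genomic copies.

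In the Drosha line the sites in these genes moved in both directions. RPM fell at the Ago2 sense and the Dicer1 antisense site, and both calls were lost under other scalings given below. RPM was lower at the Ago2 antisense and higher at the Tnrc6c site, each past the test but short of the fold threshold. It showed no difference past the test at Tnrc6b and Ago3. A call required a false discovery rate (FDR) below 0.05 together with a log2 fold change of more than 1.5 in size, in limma on log2(RPM + 0.1) over all 3919 sites. By that rule 2 of the 6 sites were called decreased and 0 increased, beside 37.6% of all sites called decreased and 9.57% increased. The 2 in 6 is close to the share among all sites, so the count says nothing particular about these genes. The log2 fold changes had a median of -0.80 at the 6 sites and -0.93 over all sites. By the study's methods, a site had to be classed as a pile-up in both control libraries to be kept. The part of that selection in the low values was not tested.

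The Ago2 intron site had RPM of 0.802 and 1.68 in the controls and 0.226 and 0.417 in the Drosha-deficient libraries. These values rest on 23, 49, 7 and 12 reads, and the groups do not overlap, although the 2 controls lie farther from each other than the lower control does from the higher deficient library. The means were 1.24 ± 0.618 and 0.321 ± 0.135 RPM (SD, n = 2). The log2 fold change was -1.62 (SE 0.57, limma FDR 0.0193). Relative to the median of all sites it was -0.69, and 34.8% of sites had a lower value. Centring each library on its median level over all sites is another adjustment, and it left a median log2 fold change of -0.34 over all sites. The call was lost with libraries centred in that way (log2 fold change -1.03, limma FDR 0.138). It was also lost without control 2 (-1.14, limma FDR 0.160) and without Drosha-deficient 1 (-1.29, limma FDR 0.0866).

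The Dicer1 antisense site had the tighter replicates, with 2.27 and 2.63 RPM in the controls and 0.677 and 0.834 in the Drosha-deficient libraries. Both deficient values lie far below both controls, from 65, 77, 21 and 24 reads. Its log2 fold change was -1.58 (SE 0.45, limma FDR 0.00569). Centring the libraries left -0.98 (limma FDR 0.0561), and leaving out control 1, control 2 or Drosha-deficient 1 ended the call at -1.68, -1.47 and -1.45. This RNA end is on the strand opposite to Dicer1, so it is no measure of the Dicer1 transcript.

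The Ago2 antisense site, the one beside linker-like sequence, held 3.28 and 1.20 RPM in the controls and 0.581 and 1.01 in the Drosha-deficient libraries. One control stands well above the other 3 libraries, and the second control exceeds the higher deficient library only slightly. The log2 fold change of -1.27 (SE 0.52, limma FDR 0.0429) stopped short of the fold threshold. It was called without control 2 (-1.96, limma FDR 0.0485) and without Drosha-deficient 2 (-1.62, limma FDR 0.0154), while it was -0.58 without control 1 (limma FDR 0.474) and -0.92 without Drosha-deficient 1 (limma FDR 0.160). Centring left -0.68 (limma FDR 0.249), and TMM -0.48 (edgeR FDR 0.470). This RNA end is on the strand opposite to Ago2, inside an intron of Chrac1, so it is no measure of the Ago2 transcript.

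Tnrc6c gave the largest upward difference among the 6 sites. Its values were 2.79 and 3.93 RPM in the controls and 7.77 and 8.90 in the Drosha-deficient libraries, so both deficient libraries lay above both controls. The means were 3.36 ± 0.810 and 8.34 ± 0.794 RPM (SD, n = 2), and the log2 fold change was 1.30 (SE 0.37, limma FDR 0.00613). It stood 2.23 above the median of all sites and above 88.7% of them. It was called increased with libraries centred (1.90, limma FDR 0.000784), and without control 2 (1.54, limma FDR 0.0383). Without control 1 it was 1.06 (limma FDR 0.0896).

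At Tnrc6b the controls had 3.17 and 3.11 RPM and the Drosha-deficient libraries 3.74 and 4.38. The groups do not overlap, but the log2 fold change was 0.36 (SE 0.38, limma FDR 0.432) with a 95% interval from -0.45 to 1.16. After centring it was 0.95 (limma FDR 0.0253) and with TMM 1.31 (edgeR FDR 0.00749), both short of the fold threshold. The Ago3 antisense site had 3.56 and 2.57 RPM in the controls against 3.23 and 1.74, with overlapping groups and a log2 fold change of -0.34 (SE 0.43, limma FDR 0.508). Its sign turned to 0.26 after centring.

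Counting the sites by separation, the deficient pair lay below both controls at 3 of the 6 sites (Ago2 sense, Ago2 antisense and Dicer1 antisense). The pair lay above at 2 (Tnrc6b and Tnrc6c), and overlapped at Ago3. Over all sites 59.9% lay below and 21.2% above. By FDR alone 3 sites were lower and 1 higher, beside 47.4% and 15% of all sites. On the recovered whole reads with mapped reads as library sizes, edgeR called the same 2 sites decreased, beside 38.9% decreased and 9.8% increased overall. The scaling decided these calls: with libraries centred, 0 sites were called decreased and Tnrc6c increased, beside 22.2% and 15.4% of all sites. The same held for edgeR with TMM scaling (trimmed mean of M values) over the tabled sites alone. The study's methods name TMM on read starts at each genomic locus, so its scaling was not repeated here. Without TMM the median log2 fold change over the tabled sites was -0.93. With it the shares of all sites were 16.2% decreased and 19.9% increased. Ago2 sense then stood at -1.04 (edgeR FDR 0.225), Dicer1 at -0.77 (edgeR FDR 0.168) and Tnrc6c at 2.23 (edgeR FDR 0.000764). Tnrc6c is thus the 1 site with a higher value in the Drosha-deficient libraries under each scaling that also passed the FDR under each.

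**Figure D3:**
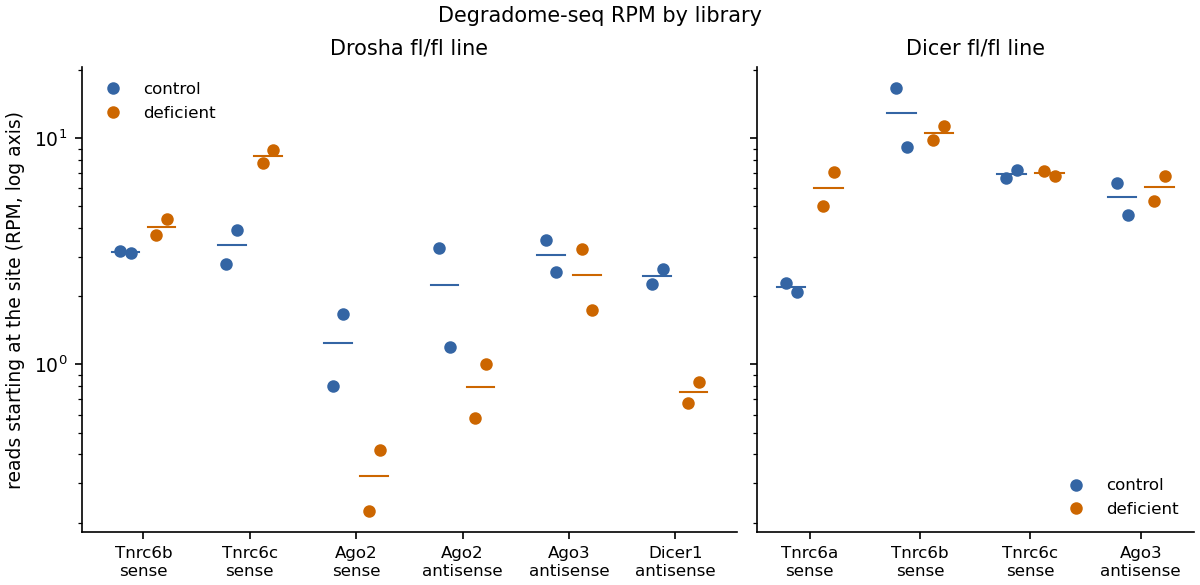
RPM at each site in each library on a log axis, with control libraries in blue and deficient ones in orange and a bar at each group mean (n = 2 per group). In the Drosha line both Drosha-deficient libraries lie below the controls at Ago2 and Dicer1 and above them at Tnrc6b and Tnrc6c; in the Dicer line the groups separate at Tnrc6a, from 2.29 and 2.10 to 5.00 and 7.09 RPM.

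The Dicer comparison used the 4 sites in its own table, in Tnrc6a, Tnrc6b, Tnrc6c and Ago3. The Tnrc6a site, the one the deposited annotation names, had 2.29 and 2.10 RPM in the controls and 5.00 and 7.09 in the Dicer-deficient libraries. Both Dicer-deficient values exceed both controls, on 79, 72, 148 and 232 reads. The means were 2.19 ± 0.133 and 6.04 ± 1.48 RPM (SD, n = 2). Its log2 fold change was 1.40 (SE 0.38, 95% interval 0.47 to 2.33), higher than at 96.8% of sites. The unadjusted limma p was 0.00989, and over 4666 sites the limma FDR was 0.465.

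Called sites in this comparison numbered 0 of 4, as they did for all sites (0% in both directions, by limma and by edgeR on whole reads). These fits had no replicate block. With the block limma still called 0 of the 4, but 67 of all sites decreased and 119 increased. The paper, by its own edgeR test at the same thresholds, reports sites decreased in Dicer-deficient cells. The reason for that difference was not tested. At an unadjusted limma p under 0.05 there was 1 of 4 (Tnrc6a, higher), beside 4.65% of all sites higher and 5.19% lower. The groups were separate at 1 of the 4 sites, where the deficient libraries were higher, beside 16.8% of all sites higher and 27.4% lower. The Tnrc6a site has no value in the Drosha table, and neither the Ago2 sites nor the Dicer1 site has one in the Dicer table, so these were not compared between the lines. The median log2 fold change was 0.08 at the 4 sites and -0.12 over all sites.

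The other 3 sites stayed within the spread of their replicates. Tnrc6c had 6.66 and 7.23 RPM in the controls and 7.13 and 6.84 in the Dicer-deficient libraries (log2 fold change 0.01, 95% interval -0.79 to 0.81, limma FDR 0.993). Tnrc6b had 16.6 and 9.18 RPM against 9.87 and 11.3 (-0.22, interval -1.18 to 0.73, limma FDR 0.837), where the 2 controls span both deficient values. The Ago3 antisense site had 6.37 and 4.58 RPM against 5.30 and 6.84 (0.16, interval -0.75 to 1.06, limma FDR 0.890). With 2 libraries a group, changes within these intervals are not excluded.

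**Figure D4:**
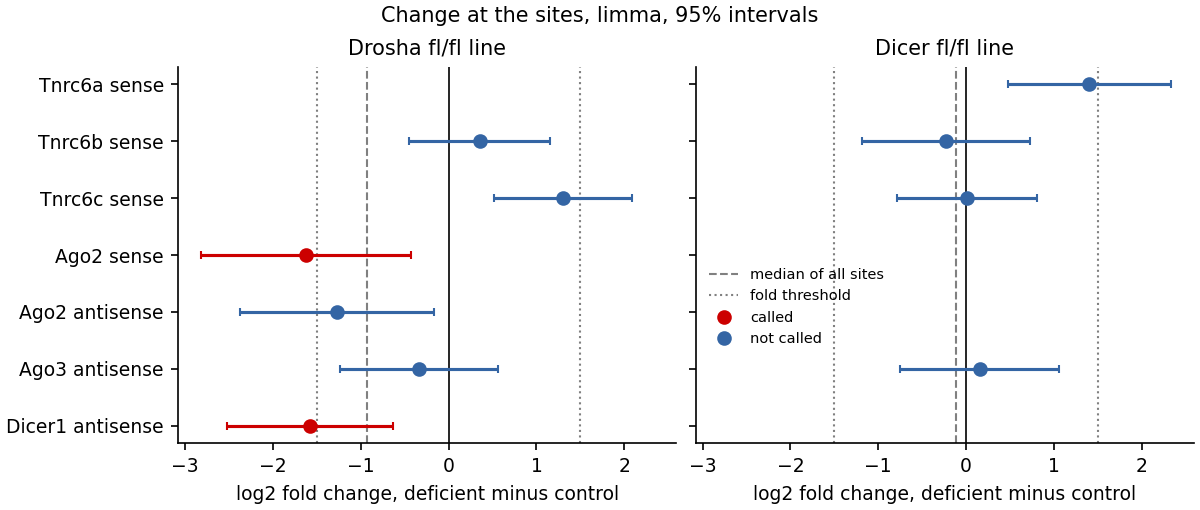
log2 fold change (deficient minus control) at each site with its 95% interval from limma, for the Drosha line at the left and the Dicer line at the right. Dashed lines mark the median of all sites (-0.93 and -0.12) and dotted lines the fold threshold of 1.5; the 2 called sites, Ago2 sense and Dicer1 antisense, are in red, and empty rows are sites that a table does not hold.

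Whether the change at a site differed between the Drosha and the Dicer line was tested by the interaction of line and deficiency over the 2595 sites in both tables. The lines also differ in the drug, the retrovirus and the sorting. The interaction cannot tell the gene lost apart from these. Of the 3 sites in these genes, 0 passed an FDR of 0.05 in limma and 0 in edgeR. Over all shared sites, 3.08% passed that limma FDR with a higher and 1.7% with a lower change in the Drosha line. At Tnrc6c the change in the Drosha line exceeded that in the Dicer line by 1.29 (95% interval 0.25 to 2.34, limma FDR 0.0925). With libraries centred on the shared sites the difference was 1.81 (limma FDR 0.0474). The control levels differed between the lines, at 3.36 RPM in the Drosha and 6.94 RPM in the Dicer controls, and the Drosha-deficient mean of 8.34 lay near the Dicer-deficient mean of 6.99. For Tnrc6b the difference was 0.58 (interval -0.60 to 1.76, limma FDR 0.429) and for Ago3 -0.49 (interval -1.83 to 0.84, limma FDR 0.562). Single libraries moved both, from 0.16 without Dicer control 1 to 1.00 without Dicer control 2 at Tnrc6b, and from -0.92 without Drosha-deficient 1 to -0.064 without Drosha-deficient 2 at Ago3.

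Other genes of the same steps were read from a list of 47 symbols (deadenylases, decapping factors, loading chaperones, regulators of precursors and the fourth Argonaute), of which 45 were in the RNA-seq table. In the Drosha table the deposited annotation put 8 sites in 6 of them: 2 were called decreased, 0 increased, 4 lower and 1 higher by FDR alone, and 3 did not pass the FDR. Beside the shares of all sites given above (37.6% and 9.57% called, 47.4% and 15% by FDR alone), these counts say nothing particular about the list. Their median log2 fold change was -0.89, close to the -0.93 of all sites. Tut4, which adds uridines to precursors such as those of let-7, had one of the called sites, at 14.1 and 14.6 RPM in the controls against 4.42 and 4.52 RPM after loss of Drosha (log2 fold change -1.66, SE 0.35, limma FDR 0.000682). Fmr1, whose RNA-binding product associates with Argonaute, had the other, with 12.7 and 13.0 RPM against 3.55 and 4.62 (-1.64, SE 0.36, limma FDR 0.000925). Neither call held under the other scalings, which were applied to this list after the data were seen: with libraries centred Tut4 was at -1.07 and Fmr1 at -1.05, and with TMM at -0.75 and -0.71, short of the fold threshold. Of the 8 sites, 0 were then called decreased under either scaling, while 1 (Hspa8) was called increased after centring and 2 (Hspa8 and Pabpc4) with TMM. Over all sites 22.2% were called decreased and 15.4% increased after centring, and 16.2% and 19.9% with TMM. A second Tut4 site was at -0.56 (SE 0.44, limma FDR 0.275).

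In the Dicer table the same list had 10 sites in 6 genes with a median of -0.12, and 0 were called. The same Tut4 site had 9.81 and 8.04 RPM in the Dicer controls against 5.41 and 3.42 (-1.03, SE 0.39, limma FDR 0.484). The site with the most reads was in Hsp90ab1, a chaperone used in Argonaute loading, at 513 and 465 RPM against 447 and 365 (-0.28, SE 0.29, limma FDR 0.723). By coordinates alone, a site antisense to Ago4 had 4.71 and 2.12 RPM in the Drosha controls and 20.10 and 14.04 in the Drosha-deficient ones (log2 fold change 2.37, SE 0.41, limma FDR 0.000145). It was picked after its values were seen, and its first 30 bases are repeat sequence with 337 copies in the genome. Copies of longer stretches were not counted, so it is not shown that its reads come from Ago4.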

How the data were processed

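Degradome-seq was measured in 8 libraries (2 per group) and RNA-seq in 6. Per the study's methods and the submitters' processing notes, Degradome-seq reads were trimmed with Trimmomatic 0.38.0 and aligned with STAR to GRCm38, and read starts per position were scaled by the authors to the library's reads (RPM). As the methods describe it, the authors kept positions that a model trained on miRNA loci classed as pile-ups in both control libraries. The paper reports fewer pile-up sites in control cells than the 3919 and 4666 sites used here, and the reason is not known. It also reports fewer sites decreased in Drosha-deficient cells than the 1473 called here, and some decreased in Dicer-deficient cells, where 0 were called here. The RNA-seq column used holds the authors' mean log2 CPM over all 6 libraries as deposited, with no value per library. The other deposited columns hold the authors' fold changes, F statistics, p-values and FDRs (edgeR 3.26.1) and were not used.

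Samples were grouped by their labels. RPM was tested with limma 3.58.1 (R 4.3.3) on log2(RPM + 0.1), with empirical Bayes variances with a trend, Benjamini-Hochberg adjustment over each whole table, an FDR of 0.05 and a log2 fold change of 1.5. The pseudocount understates changes of low sites. Interactions were fitted over the shared sites. All RPM values (100% within 0.1 read) came out as whole reads, which edgeR 4.0.16 tested as an alternative chosen after the data were seen. That edgeR test called 1525 sites decreased and 384 increased in the Drosha comparison and 0 in either direction in the Dicer comparison. Both tools were tested on simulated data with larger changes than those at the sites in these 10 genes, so that test does not bear on their calls. Nothing says that replicates were separate cultures, so p-values measure the spread between these libraries, which may be technical. The libraries were amplified by PCR without molecular identifiers, so read counts can include copies of the same molecule. Windows were folded with RNAfold 2.7.2. Sites were named with the gene whose bounds they fall in, on either strand, and all 10 genes were named. Genes and lists were chosen with earlier results of these data known. Other settings were another pseudocount, centring, a filter at 0.3 RPM, no trend, the replicate block, each library left out, and other lengths for RNA levels.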

Additional observations from a re-analysis of the deposited data

How the results depend on the processing

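With 2 libraries a group, the changes at Ago2, Dicer1 and Tnrc6c depended on scaling and on single libraries; 156 of 199 recomputed values kept their direction and their side of the threshold or stayed within 1.5 times the count. Sites called in the Drosha comparison numbered 1473 decreased and 375 increased. With a pseudocount of 1 RPM 548 were called decreased. Centring gave 871 decreased and 602 increased, and edgeR with TMM, added after the data were seen, 636 and 780. Leaving out 1 library gave 907 (without control 1) to 1519 decreased and 264 to 463 increased. In the Dicer comparison 0 were called; leaving out 1 library gave 0 to 1 decreased and 0 to 13 increased, with the highest counts without Dicer-deficient 2.

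A pseudocount of 1 RPM took the log2 fold change of Ago2 sense to -0.74, of Ago2 antisense to -0.78 and of Dicer1 antisense to -0.97. For Ago2 sense and Dicer1 antisense, centring gave -1.03 and -0.98, and TMM -1.04 and -0.77. For Tnrc6c centring gave 1.90 and TMM 2.23. At Ago3 antisense, centring turned the change in the Drosha line to 0.26, TMM to 0.62, and centring turned the difference between the lines to 0.021. The difference at Tnrc6c was 1.81 after centring. Except where the construction shows it, the cause was not tested.

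Without 1 library, the change in the Drosha line ran from -2.11 to -1.14 at Ago2 sense, -1.71 to -1.45 at Dicer1 antisense, -1.96 to -0.58 at Ago2 antisense, 1.06 to 1.54 at Tnrc6c and -0.76 to 0.091 at Ago3 antisense. In the Dicer line it ran from -0.049 to 0.068 at Tnrc6c, -0.65 to 0.20 at Tnrc6b, -0.079 to 0.39 at Ago3 antisense and 1.15 to 1.65 at Tnrc6a. An arm with 1 library was assumed to vary like the other.

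Replicate numbers are not said to mark a shared culture, and the correlation of same-numbered deviations was 0.13 in the Drosha and 0.53 in the Dicer line, each from 2 pairs. With the replicate block, 67 sites were called decreased and 119 increased in the Dicer comparison, where Tnrc6a reached a limma FDR of 0.0265 at 1.40, short of the fold threshold, and the difference at Tnrc6c reached 0.0164 at 1.29. The block changed no other call at these sites. Among RNA levels, 5 of 10 genes changed place with the longest transcript as the length and 8 with no length. The Ago2 sense site rests on 7 to 49 reads per library.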
